A study of Mus musculus with 6 samples.

Results

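The complement system was followed here through 9 genes, the C1q chain genes C1qa, C1qb and C1qc, the C1 protease gene C1ra, C3, C4b, the C1 inhibitor gene Serping1 and the anaphylatoxin receptor genes C3ar1 and C5ar1. They were found by symbol in the table of gene counts, which held all 9 among 21899 genes, and all 9 were among the 14956 genes with enough counts to be tested. Thalamus was sequenced in bulk from male C57BL/6J wild-type mice, 8 to 10 weeks old at purchase, in 2 groups of 3. All 6 mice received 50 Gy of gamma rays to the left thalamus, an injection of 2 µL of AAV9 there 2 weeks later, and tissue removal 6 weeks after irradiation. RC mice received AAV9 GFAP104::tdTomato, which carries only a red fluorescent protein, and RN mice received AAV9 GFAP104::mND1-tdTomato, which adds mouse NeuroD1, a transcription factor that drives neuronal differentiation. GFAP104 joins an enhancer to a compact GFAP promoter. By the paper's account AAV9 infects both neurons and astrocytes, and this promoter makes expression more specific to astrocytes. Bulk counts of a tissue of many cell types do not show which cells carried NeuroD1. Unirradiated mice were not analysed here, so every value below is a difference between irradiated groups.

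Complement is a chain of plasma proteins that is also made within the brain. In the classical pathway C1q binds a surface or an antibody, its partner proteases C1r and C1s cut C4 and C2, and the resulting enzyme cuts C3, whose fragment tags the surface for uptake. The small fragments of C3 and C5 signal through C3ar1 and C5ar1, and the C1 inhibitor, the product of Serping1, removes C1r and C1s from the complex. In the brain microglia are the main source of C1q, while C3 and C4 are also made by astrocytes and other cells, and tagged synapses and debris are taken up by microglia through complement receptors.

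The libraries held between 16561663 and 18657015 counts, of which the 9 genes took between 0.138% and 0.217%. A count of 0 allows up to 3 counts in a library, or 0.160 to 0.179 CPM (counts scaled to the TMM-normalized library size), a limit that covers counting error only. Neurod1, the gene of the virus, was counted 84, 91 and 90 times in the RC libraries and 1123, 1711 and 910 times in the RN libraries, with a log2 fold change of 3.77 ± 0.227 (SE) with an adjusted p of 0.00178 in edgeR's quasi-likelihood test. Viral and mouse transcripts of Neurod1 are not separated in these counts. All 8 listed markers of thalamic neurons were detected, and their summed CPM lay between 893 and 1782 in RC and between 665 and 1320 in RN. Markers of neighbouring tissue differed between libraries, with choroid plexus markers summing to 374.5 to 8504 CPM in RC and 122 to 197 in RN, and hypothalamic markers to 24.3 to 207 in RC and 239 to 436 in RN.

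None of the 9 complement genes passed the test between RN and RC, which asked for an adjusted p under 0.05 and a change of at least 2-fold. The highest difference was that of Serping1, 1.92-fold higher in RN, and the lowest that of C3, 2.26-fold lower, and these were the only members whose RC and RN mice did not overlap. The groups overlapped for the other 7 members, of which C1qa, C1qb, C1qc, C3ar1, C5ar1 and C1ra were higher and C4b lower in RN on average. edgeR's quasi-likelihood test called 0 members against a background of 0.0735% of the tested genes, and 3 members, Serping1, C1qc and C3, had an unadjusted p under 0.05, against 11.8% of all tested genes. Of these Serping1 and C1qc were higher and C3 lower in RN, against 5.44% of all tested genes in the first direction and 6.33% in the second. DESeq2 called 0 members against 1.15% of its genes and placed 6 under an unadjusted p of 0.05, against 10.9% of its genes. Without a fold threshold DESeq2 counted 1 member, Serping1, with an adjusted p of 0.0305, against 2.93% of its genes. The median log2 fold change of the members was 0.28 and that of all tested genes 0.00, with 50.8% of all tested genes above 0. Non-overlapping groups were found for 16.3% of the tested genes, 8.18% higher and 8.12% lower in RN.

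**Figure D1:**
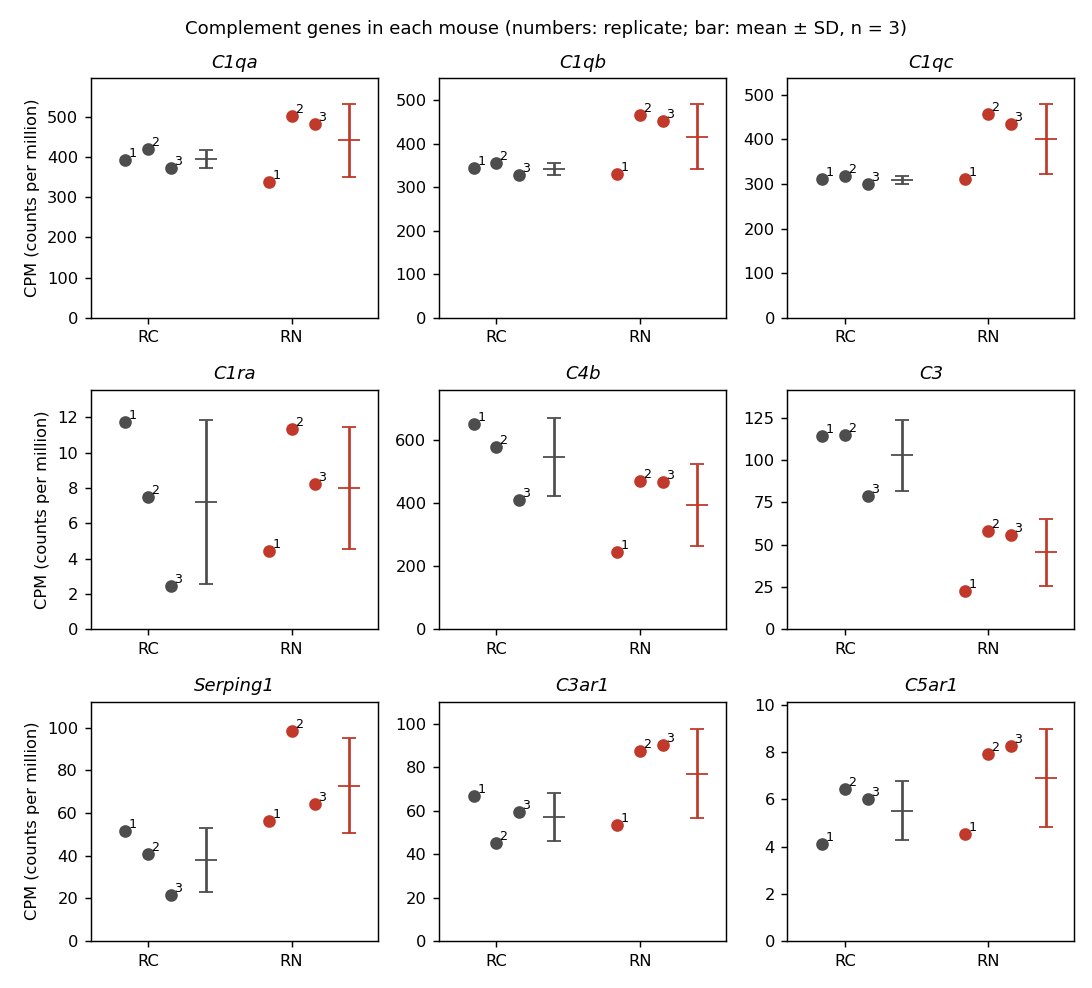
CPM of each of the 9 complement genes in the 3 RC and 3 RN mice, one panel per gene with its own axis starting at 0, with points for mice and a line and bar for the mean and SD. Serping1 is higher and C3 lower in every RN mouse than in every RC mouse, while the other 7 genes overlap, and RN replicate 1 is the lowest RN mouse in all 9 panels.

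Per length of transcript, the C1q chains were the most abundant of the members. C1qa, C1qb and C1qc each encode 1 of the 3 chains of C1q, and the 3 genes lie next to each other on chromosome 4. The stretch of 250 bases before the start of 2 of them was available from RefSeq (assembly GRCm38.p6, while the counts were made on GRCm39) and is shown because the 3 chains assemble into 1 molecule and their counts varied together from mouse to mouse. Capitals mark the PU box GAGGAA, the element bound by the myeloid factor PU.1, searched on both strands. C1qb lies at chr4:136886201-136886450 and C1qc at chr4:136892915-136893164, both on the minus strand and written 5′ to 3′ in the direction of the gene.
C1qb: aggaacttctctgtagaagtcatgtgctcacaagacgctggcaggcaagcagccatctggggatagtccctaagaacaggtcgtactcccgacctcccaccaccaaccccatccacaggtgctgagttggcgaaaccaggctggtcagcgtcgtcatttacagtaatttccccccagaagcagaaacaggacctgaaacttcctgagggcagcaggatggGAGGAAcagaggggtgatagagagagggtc
C1qc: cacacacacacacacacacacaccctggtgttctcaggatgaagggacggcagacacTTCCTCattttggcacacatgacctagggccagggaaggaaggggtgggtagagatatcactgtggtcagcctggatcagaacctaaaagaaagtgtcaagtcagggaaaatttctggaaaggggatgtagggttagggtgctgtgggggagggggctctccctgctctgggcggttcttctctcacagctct
In C1qb the PU box lies on the strand of the gene, 30 to 25 bases before the start, and in C1qc on the opposite strand, 193 to 188 bases before it. These letters occur in 23.3% of 32851 windows of the same length, so their presence is a description of the sequence.

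C1qa (ENSMUSG00000036887) had 392.9, 418.9 and 372.6 CPM in RC replicates 1 to 3, against 337.5, 503.0 and 482.9 in RN. C1qb (ENSMUSG00000036905) had 343.5, 356.4 and 328.0 CPM in RC, against 330.4, 467.5 and 453.2 in RN. C1qc (ENSMUSG00000036896) had 311.2, 317.8 and 299.3 CPM in RC, against 311.3, 455.9 and 434.9 in RN. For each chain RN replicates 2 and 3 lay above all RC mice, whereas RN replicate 1 lay within the RC range for C1qb and C1qc and below it for C1qa. The mean of C1qa was 394.8 ± 23.2 CPM in RC and 441.1 ± 90.3 in RN (SD, n = 3 each), with a log2 fold change of 0.16 ± 0.147 (SE) with an adjusted p of 0.764 in edgeR's quasi-likelihood test. That of C1qb was 0.28 ± 0.132 (adjusted p = 0.463, edgeR) and that of C1qc 0.37 ± 0.139 (adjusted p = 0.336, edgeR). The 95% intervals of the log2 fold change ran from -0.18 to 0.50 for C1qa, -0.02 to 0.59 for C1qb and 0.05 to 0.69 for C1qc. They are intervals for single genes, so that of C1qc excludes 0 before the adjustment over all genes. The spread among RN mice was larger than that among RC mice for all 3 chains, and without RN replicate 1 the log2 fold changes were 0.32, 0.43 and 0.53 in the same order, none of them called.

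Within each mouse the 3 chains kept close ratios. The count of C1qa over that of C1qb was 1.14, 1.18 and 1.14 in RC and 1.02, 1.08 and 1.07 in RN, and the count of C1qc over that of C1qb was 0.906, 0.892 and 0.913 in RC and 0.942, 0.975 and 0.960 in RN. In both ratios the RC and RN mice did not overlap, with means of 1.15 ± 0.0207 and 1.05 ± 0.0289 for C1qa over C1qb and 0.903 ± 0.0106 and 0.959 ± 0.0166 for C1qc over C1qb (SD, n = 3 each). These are 2 of 9 ratios computed among complement genes, they were not tested, and they do not depend on the library size. Of the 9 only Serping1 over C1qb and C3ar1 over C1qb overlapped between the groups. How often ratios of other gene pairs separate RC from RN was not computed.

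The microglial markers beside C1q went in 2 ways. Of 12 homeostatic microglia markers, 8 were higher and 4 lower in RN with a median log2 fold change of 0.08, and their summed CPM lay between 1186 and 1305 in RC and 1012 and 1415 in RN. P2ry12, a microglial purine receptor, had a log2 fold change of 0.12 and Tmem119, a microglial surface protein, -0.08. Of 13 markers of activated microglia and macrophages all 13 were higher in RN, with a median of 0.60. In edgeR 11 had an unadjusted p under 0.05, against 5.44% of all tested genes in this direction, and 0 were called. DESeq2 called 4, against 1.15% of its genes. Without a fold threshold 9 had an adjusted p under 0.05 in DESeq2, against 2.93% of its genes. Cd68, a lysosomal protein of phagocytes, had a log2 fold change of 0.60 (adjusted p = 0.208, edgeR) and Gpnmb, a glycoprotein of lipid-laden phagocytes, 1.39 (adjusted p = 0.0630, edgeR). The paper reports weaker CD68 and Iba1 staining after NeuroD1 treatment, and proposes that microglial activation decreased. It also reports a higher density of Iba1-positive cells in the core of the lesion. That staining measured protein 11 weeks after irradiation, later than the tissue sequenced here. Cd68 RNA went the opposite way to CD68 staining, and the cause of this difference was not tested. In bulk tissue fewer cells of a type and less RNA per cell cannot be told apart. With the homeostatic microglia score of each mouse (the mean centred log2 CPM of the 12 markers) as a covariate, the log2 fold changes of C1qa, C1qb and C1qc were 0.05, 0.18 and 0.27, with adjusted p-values of 0.946, 0.618 and 0.436 in edgeR.

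C1ra encodes the protease C1r, which is activated within the C1 complex and then activates C1s. C1ra (ENSMUSG00000055172) was counted 209, 125 and 43 times in RC replicates 1, 2 and 3, against 75, 212 and 147 times in RN. RC replicate 3 was lowest and the groups overlapped over most of their range, with means of 7.22 ± 4.63 CPM in RC and 8.01 ± 3.44 in RN (SD, n = 3 each). The log2 fold change was 0.15 ± 0.520 (SE) with an adjusted p of 0.956 (edgeR) and a 95% interval from -1.04 to 1.35, so a difference of 2-fold in either direction lies within it. Its sign was not stable, at -0.26 without RC replicate 3 and -0.19 without RN replicate 2. C1s1, the gene of the next protease, was counted 129, 82 and 58 times in RC, against 38, 124 and 61 times in RN, and the ratio of C1ra to C1s1 counts within a mouse was 1.30 ± 0.482 in RC and 2.03 ± 0.354 in RN. By replicate this ratio was 1.62, 1.52 and 0.741 in RC, against 1.97, 1.71 and 2.41 in RN. The groups did not overlap, RC replicate 3 stood apart as the lowest mouse, and the ratio was not tested. C1rl, a C1r-like protease, had a log2 fold change of -0.50 (adjusted p = 0.762, edgeR), and the close copies C1rb and C1s2 had 0 to 3 counts in any library and were not tested. C1ra shares much of its sequence with C1rb, so reads of the pair may have been divided between them and the level of C1ra is uncertain by that amount.

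C4b and C3 encode the proteins that the pathway cuts and deposits, and both were lower in RN on average. C4b (ENSMUSG00000073418) had 647.9, 575.9 and 408.5 CPM in RC replicates 1 to 3, against 243.9, 470.5 and 464.8 in RN. RN replicate 1 was the lowest of all mice and RC replicates 1 and 2 the highest, with RC replicate 3 below RN replicates 2 and 3. The means were 544.1 ± 122.8 and 393.1 ± 129.2 CPM (SD, n = 3 each), with a log2 fold change of -0.47 ± 0.260 (SE) with an adjusted p of 0.562 in edgeR's quasi-likelihood test and a 95% interval from -1.07 to 0.13. Without RN replicate 1 the log2 fold change of C4b was -0.22. Mouse C4b has a near-identical neighbour, C4a, which has no row in the table of gene counts. How reads shared by the pair were treated is not known, so the level of C4b is uncertain.

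C3 is the central protein of all complement pathways. The 250 bases before the start of C3, at chr17:57228137-57228386 on the minus strand of GRCm38.p6, are shown because C3 had the smallest p of the members in edgeR, with capitals on the C/EBP element TTGCNNAA, an element of acute-phase genes searched on both strands.
C3: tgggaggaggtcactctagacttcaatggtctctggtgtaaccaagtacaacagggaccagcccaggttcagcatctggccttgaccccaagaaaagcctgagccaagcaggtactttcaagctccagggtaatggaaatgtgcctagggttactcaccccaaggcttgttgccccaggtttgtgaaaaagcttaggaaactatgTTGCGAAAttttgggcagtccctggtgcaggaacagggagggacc
The element lies 45 to 38 bases before the start, and 9.56% of the 32851 windows hold these letters. The windows of C1qb, C1qc and C3, like those of C1ra, C3ar1 and C5ar1, held neither the interferon-stimulated response element, found in 2.98% of windows, nor the STAT element TTCNNNGAA, found in 7.02%. The windows of C1ra, C3ar1 and C5ar1 also held no PU box and no C/EBP element, and 6 of the 9 members had a RefSeq window.

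C3 (ENSMUSG00000024164) had 114.4, 115.1 and 78.8 CPM in RC replicates 1 to 3, against 22.4, 58.2 and 55.8 in RN. All 3 RN mice lay below all 3 RC mice, with RN replicate 1 far below the others and RC replicate 3 the lowest of its group. The means were 102.8 ± 20.8 CPM in RC and 45.5 ± 20.0 in RN (SD, n = 3 each), with a log2 fold change of -1.17 ± 0.327 (SE) with a 95% interval from -1.93 to -0.42. The adjusted p was 0.202 in edgeR's quasi-likelihood test and 0.168 in DESeq2, so the difference of C3 did not pass the test. RN replicate 1 decided much of its size, since the log2 fold change was -0.85 without that mouse, and the other mice left out in turn gave values down to -1.40. C3 was called in 1 of 16 alternative settings, with the homeostatic microglia score as a covariate, at a log2 fold change of -1.52 and an adjusted p of 0.0473 in edgeR.

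The count of C3 set against that of C4b within a mouse did not overlap between the groups. C3 over C4b was 0.177, 0.200 and 0.193 in RC and 0.0920, 0.124 and 0.120 in RN, with means of 0.190 ± 0.0119 and 0.112 ± 0.0174 (SD, n = 3 each). Both genes were lowest in RN replicate 1 and lower in RC replicate 3 than in the other RC mice. Their ratio was lowest in RN replicate 1 as well, while in RC replicate 3 it lay between those of the other RC mice. C3 over C1qb was 0.299 ± 0.0510 in RC and 0.105 ± 0.0323 in RN, and C4b over C1qb 1.58 ± 0.322 in RC and 0.923 ± 0.161 in RN, again with no overlap. C4b therefore overlapped between the groups as a level but not as a ratio to C1qb, which was higher in 2 of the 3 RN mice. These ratios were not tested. Those to C1qb set genes lower in RN on average against a gene that was higher, so they largely follow from the levels.

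**Figure D2:**
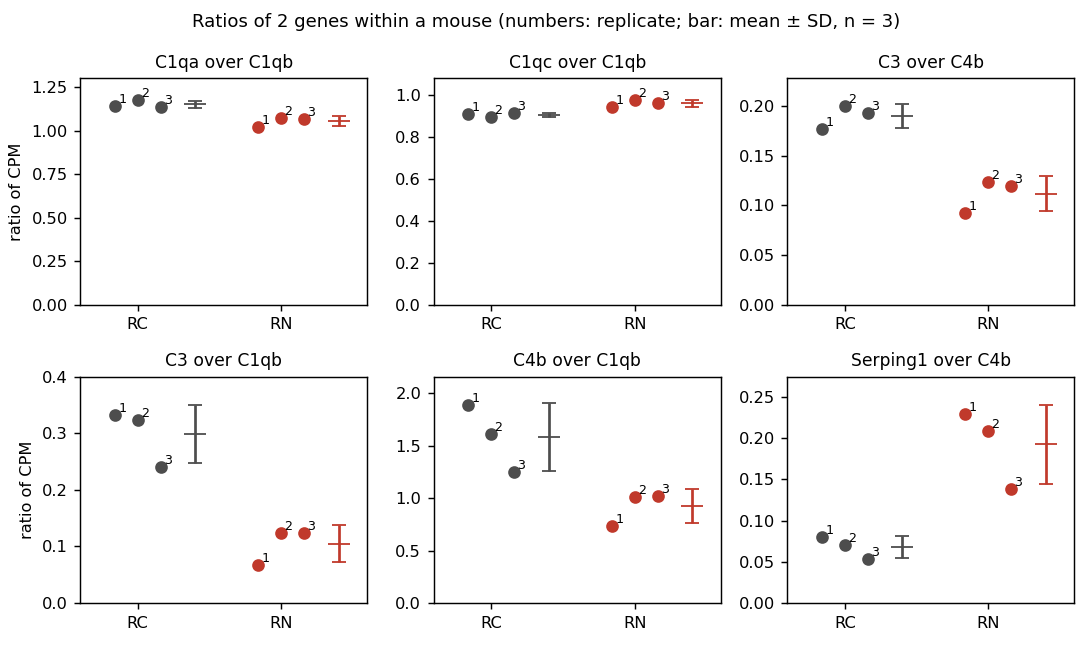
Ratios of the counts of complement genes within each of the 3 RC and 3 RN mice, with points for mice and a line and bar for the mean and SD. C3 over C4b lies between 0.177 and 0.200 in RC and between 0.0920 and 0.124 in RN, and C1qa over C1qb between 1.14 and 1.18 in RC and 1.02 and 1.08 in RN.

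Markers of other sources of C3 and C4b differed between the same libraries. All 10 astrocyte markers were lower in RN, with a median log2 fold change of -0.43 and summed CPM of 6109 to 7825 in RC and 4223 to 5401 in RN. Of these 7 had an unadjusted p under 0.05 in edgeR, against 6.33% of all tested genes in this direction. At 2-fold 0 were called by edgeR or DESeq2. Without a fold threshold 5 had an adjusted p under 0.05 in DESeq2, against 2.93% of its genes. All 10 endothelial markers were also lower, with a median of -0.44 and summed CPM of 647 to 722 in RC and 449 to 587 in RN. In DESeq2 4 of them had an adjusted p under 0.05 without a fold threshold, and 0 were called. The 11 choroid plexus markers were all lower, with a median of -3.39, and edgeR called 0 and DESeq2 7, against 1.15% of its genes. Ttr, the transthyretin gene of the choroid plexus epithelium, was counted 44222, 127609 and 4491 times in RC, against 415, 1169 and 1642 times in RN. Among the RC mice replicate 3 was lowest in C3 and in C4b, as in 7 of 9 members. It was also lowest in the choroid plexus markers, which summed to 2835, 8504 and 374.5 CPM in replicates 1 to 3. RC replicates 1 and 2 did not follow these markers, with C3 at 114.4 and 115.1 CPM and C4b at 647.9 and 575.9. Adding the score of the choroid plexus markers to the model gave C3 a log2 fold change of -0.70 (adjusted p = 0.713, edgeR) and C4b one of -0.02 (adjusted p = 0.993, edgeR), and left only 1 member, Serping1, with an unadjusted p under 0.05, against 9.07% of the tested genes. The choroid plexus score was at least -0.67 in every RC mouse and at most -1.07 in every RN mouse. Score and group therefore cannot be told apart in that model. The part of these cell types in the C3 and C4b values was not tested. Reactive astrocyte markers gave no common direction, with 4 of 11 higher and 7 lower. edgeR called 0 of them, while DESeq2 called 1 higher and 1 lower, against 1.15% of its genes. Among these markers Lcn2, lipocalin 2, had a log2 fold change of -1.28 (adjusted p = 0.205, edgeR). Serpina3n, a serine protease inhibitor, had 0.96 (adjusted p = 0.341, edgeR). The paper, which used DESeq2, reports Lcn2 as significantly lower after NeuroD1 treatment.

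Serping1 encodes the C1 inhibitor, a plasma serine protease inhibitor that also inactivates kallikrein of the kinin system. Serping1 (ENSMUSG00000023224) had 51.7, 40.7 and 21.6 CPM in RC replicates 1 to 3, against 56.1, 98.3 and 64.4 in RN. All RN mice lay above all RC mice, but RN replicate 1 only narrowly above RC replicate 1, and RN replicate 2 and RC replicate 3 stood at the ends. The means were 38.0 ± 15.2 CPM in RC and 72.9 ± 22.4 in RN (SD, n = 3 each), with a log2 fold change of 0.94 ± 0.316 (SE) with a 95% interval from 0.22 to 1.67 and an adjusted p of 0.278 in edgeR's quasi-likelihood test. DESeq2 gave Serping1 an adjusted p of 0.0305 but a change under 2-fold, so neither tool called it. With single mice left out the log2 fold change lay between 0.66 and 1.23. Serping1 over C4b, the inhibitor set against a substrate of its protease, was 0.0678 ± 0.0137 in RC and 0.192 ± 0.0479 in RN. The lowest RN mouse, at 0.138, lay above the highest RC mouse, at 0.0797. Serping1 was higher and C4b lower in RN on average, so this ratio largely follows from their levels, and it was not tested. Serping1 over C1qb overlapped between the groups, at 0.150, 0.114 and 0.0658 in RC replicates 1, 2 and 3, against 0.170, 0.210 and 0.142 in RN.

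Meningeal fibroblast markers varied within both groups beside Serping1. Their summed CPM lay between 126 and 466 in RC and 173 and 499 in RN, the lowest mice being RC replicate 3 and RN replicate 3, and 7 of 10 were higher in RN. Col1a1, a chain of type I collagen, had 21.7, 22.2 and 9.62 CPM in RC, against 18.1, 39.1 and 18.2 in RN, and its log2 fold change was 0.50 (adjusted p = 0.712, edgeR). Serping1 was highest in RN replicate 2 and lowest in RC replicate 3, as was Col1a1. In the model that held the choroid plexus score, Serping1 had a log2 fold change of 1.73 (adjusted p = 0.322, edgeR) and C1ra one of 1.58 (adjusted p = 0.617, edgeR). With the score of the meningeal fibroblast markers in the model instead, Serping1 lay at 0.85 (adjusted p = 0.161, edgeR) and C1ra at 0.13 (adjusted p = 0.951, edgeR), close to the values on group alone. The choroid plexus score separated RC from RN, so score and group cannot be told apart in the model that held it. The part of fibroblasts or choroid plexus in the Serping1 and C1ra values was not tested.

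C3ar1 and C5ar1 encode the receptors of the anaphylatoxins C3a and C5a, and in the brain both are found mainly on microglia and other myeloid cells. C3ar1 (ENSMUSG00000040552) had 66.8, 45.0 and 59.6 CPM in RC replicates 1 to 3, against 53.5, 87.6 and 90.4 in RN. RN replicates 2 and 3 lay above all RC mice and RN replicate 1 within the RC range, the pattern seen in C1qb. The means were 57.1 ± 11.1 and 77.2 ± 20.5 CPM (SD, n = 3 each), with a log2 fold change of 0.43 ± 0.216 (SE) with an adjusted p of 0.497 (edgeR) and a 95% interval from -0.06 to 0.93. C5ar1 (ENSMUSG00000049130) had far fewer reads, with 73, 108 and 105 counts in RC, against 76, 148 and 148 counts in RN. Its RN replicate 1 also lay within the RC range, and the log2 fold change was 0.32 ± 0.282 (adjusted p = 0.746, edgeR) with a 95% interval from -0.32 to 0.97. C3ar1 over C1qb was 0.167 ± 0.0363 in RC and 0.183 ± 0.0191 in RN, groups that overlapped. C5ar2, a second receptor for C5a beside C5ar1, had a log2 fold change of -0.02 (adjusted p = 0.992, edgeR). Neutrophils and monocytes also carry these receptors, and the counts of their markers were uneven. S100a8, a calcium-binding protein of neutrophils, lay at 0.447 to 2.00 CPM and Mpo, myeloperoxidase, at 2 to 9 counts over the 6 mice. Mmp8, another neutrophil marker, was counted 7, 6 and 15 times in RC, against 32, 70 and 82 times in RN. In RN replicate 3, where Mmp8 was highest, the neutrophil markers S100a9, Ngp and Camp had 6, 9 and 0 counts. Each of these was the lowest of the 6 mice. Of 5 tested neutrophil markers 2 were higher and 3 lower in RN. The monocyte markers Ccr2 and Vcan had 18 to 107 and 123 to 293 counts over the 6 mice. Of 5 tested monocyte markers 1, Vcan, was higher and 4 lower in RN.

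Levels of different members can be set side by side only per length. Per kilobase of annotated exon (GENCODE M21, all exons of a gene joined), C1qa had 379.6 ± 22.3 CPM per kilobase in RC and C1qb 314.9 ± 13.1, followed by C1qc at 160.2 ± 4.85, C4b at 95.5 ± 21.6 and C3 at 20.0 ± 4.04 (SD, n = 3). Serping1 at 16.3 ± 6.54 overlapped with C3 above it and with C3ar1 at 13.3 ± 2.58 below it, and C1ra at 2.42 ± 1.55 and C5ar1 at 2.15 ± 0.488 overlapped with each other. In RN the first 4 genes kept their order, at 424.2 ± 86.8, 383.3 ± 69.2, 207.5 ± 40.5 and 69.0 ± 22.7 CPM per kilobase, with C1qa and C1qb overlapping. Serping1 came next at 31.4 ± 9.61, then C3ar1 at 17.9 ± 4.76 and C3 at 8.84 ± 3.89, none of which overlapped. C3 thus stood above Serping1 and C3ar1 in RC on this scale and below both in RN. C1qc has the longest joined exons of the C1q genes, 1931 bases against 1040 for C1qa and 1088 for C1qb, and its lower level per kilobase depends on that length.

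RN replicate 1 was the lowest RN mouse in 9 of 9 members, whereas it was the lowest in 34.9% of all tested genes. In RC, replicate 3 was the lowest in 7 of 9 members against 34.6% of all tested genes. The exceptions in RC were C3ar1, which was lowest in replicate 2, and C5ar1, which was lowest in replicate 1. Without RN replicate 1, 6 members had an unadjusted p under 0.05 in edgeR, 5 of them higher and 1 lower in RN, against 10% of the genes tested in that setting. Without RN replicate 2 only 1 did, C3, against 10.5%. None was called in either setting. RN replicate 1 also had the lowest summed CPM of homeostatic microglia, reactive astrocyte, astrocyte and endothelial markers in RN, which were 1012, 768, 4223 and 449.

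**Figure D3:**
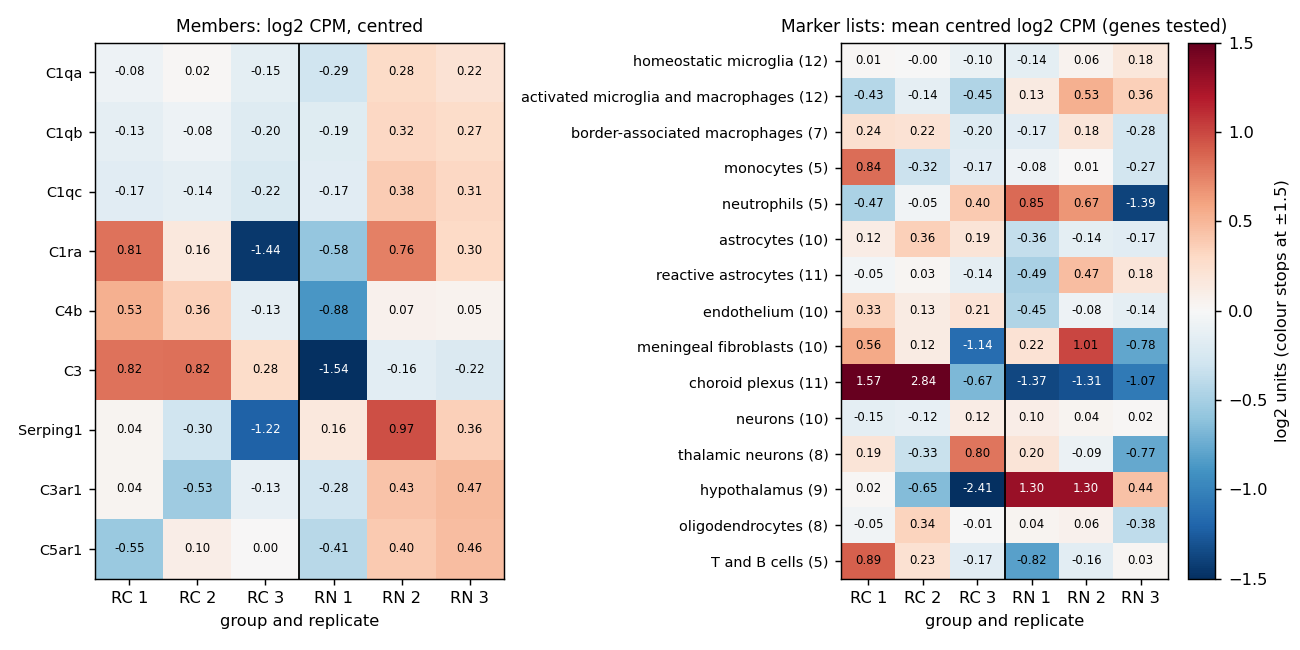
Left, log2 CPM of the 9 complement genes in each mouse, centred on the mean of the 6 mice, and right, the scores of the marker lists (mean centred log2 CPM), with the colour scale ending at 1.5 in either direction. The activated microglia score leaves out Itgax, itself a complement receptor gene. RN replicate 1 is below RN replicates 2 and 3 in every member, and the choroid plexus, hypothalamus, astrocyte, endothelium and activated microglia scores separate RC from RN.

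Beyond the 9 members, the complement genes were read from a list of 56 names arranged by role. Of these 55, all but C4a, were in the table, and 35, members included, had enough counts to be tested. edgeR called 0 of the 35, against 0.0735% of all tested genes, and DESeq2 called 2, Cfp and Itgax, against 1.15%. In edgeR 9 had an unadjusted p under 0.05, against 11.8% of all tested genes, 6 of them higher and 3 lower in RN. The median log2 fold change was -0.01 over the 26 genes that are not members. Cfp encodes properdin, which stabilizes the enzyme that cuts C3 in the alternative pathway. Cfp was counted 58, 38 and 33 times in RC, against 87, 180 and 148 times in RN, every RN mouse above every RC mouse, with means of 2.47 ± 0.703 and 7.69 ± 2.28 CPM (SD, n = 3 each). Its log2 fold change was 1.64 ± 0.307 (SE), with an adjusted p of 0.0986 in edgeR and 0.00038 in DESeq2. Itgax, a subunit of complement receptor 4 and also a marker of activated microglia, had 69.0, 75.9 and 48.1 CPM in RC, against 103.2, 168.8 and 137.7 in RN, without overlap. Its log2 fold change was 1.09 ± 0.213, with an adjusted p of 0.108 in edgeR and 2.95e-05 in DESeq2.

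**Figure D4:**
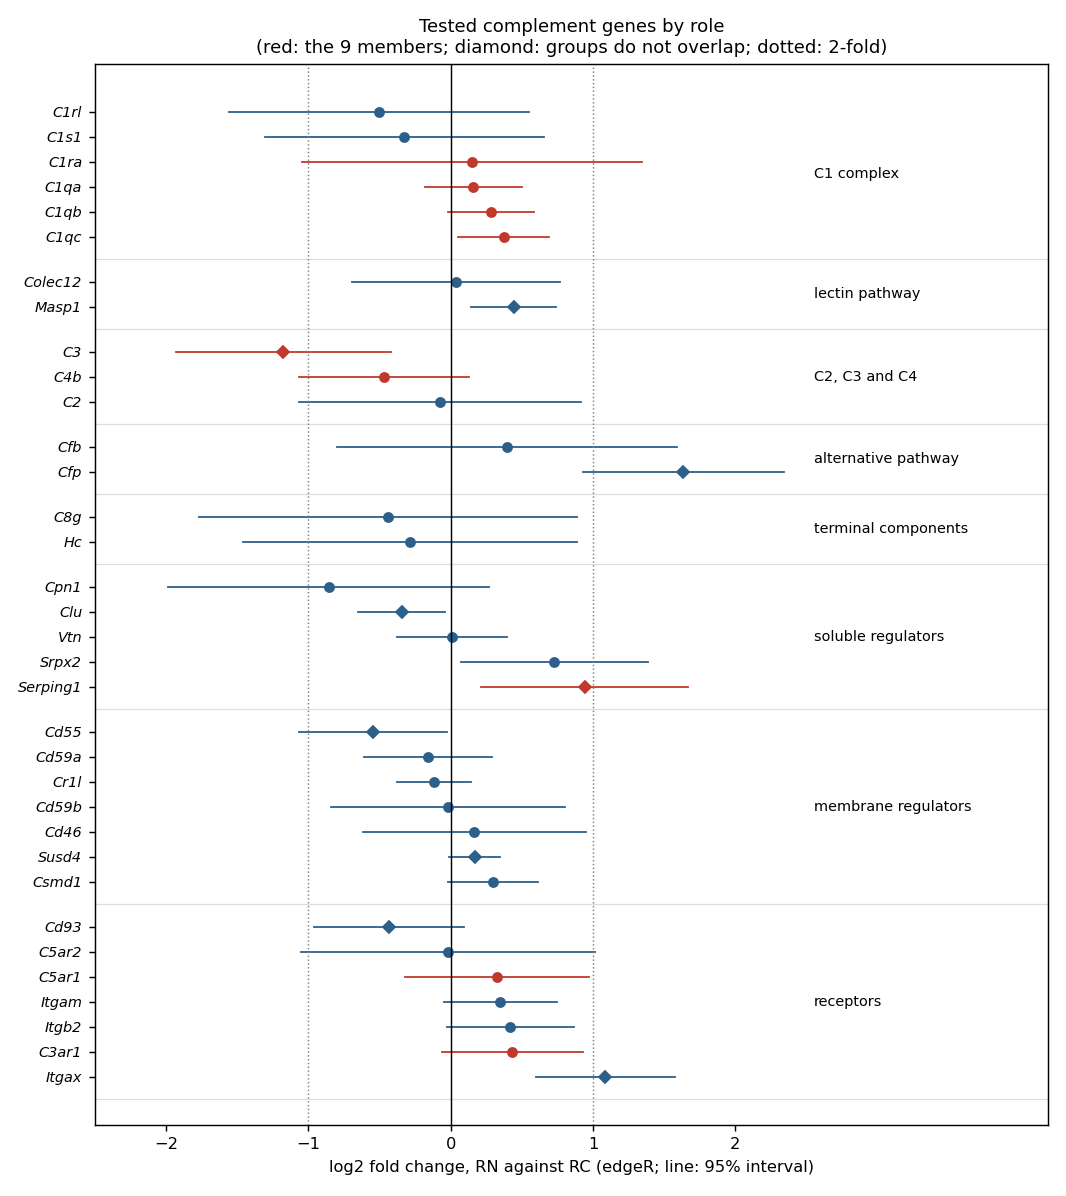
Log2 fold changes (RN against RC, edgeR) of tested complement genes by role, with 95% intervals, members in red, diamonds for genes whose RC and RN mice do not overlap and dotted lines at a 2-fold change. Cfp at 1.64 and Itgax at 1.09 lie highest and C3 at -1.17 lowest, and 9 of the intervals shown do not include 0.

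Among the initiating genes those of C1q were abundant, and most of those of the lectin pathway were scarce in this tissue. Of 8 genes of the C1 complex 6 were tested, 4 higher and 2 lower on average, and C1qc was the only one with an unadjusted p under 0.05. In the lectin pathway, which starts from sugars in place of C1q, 2 of 9 genes were tested. Masp1, a protease of that pathway, had 14.8, 13.1 and 13.6 CPM in RC, against 17.5, 20.7 and 18.1 in RN, all RN mice above all RC mice, with a log2 fold change of 0.44 ± 0.130 (adjusted p = 0.216, edgeR). Colec12, a scavenger receptor with a collectin domain, had 0.04. Mbl1, a mannose-binding lectin, had no counts in any library. C2, the partner of C4 in the enzyme that cuts C3, had a log2 fold change of -0.07 (adjusted p = 0.977, edgeR), and Cfb, its counterpart in the alternative pathway, 0.39 ± 0.519 (adjusted p = 0.853, edgeR).

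Genes of the membrane attack complex were near the limit of detection. Hc, the mouse gene of C5, had 1.63, 0.478 and 1.49 CPM in RC, against 0.714, 1.34 and 0.895 in RN, and C8g, a subunit of C8, lay at 0.882 ± 0.158 CPM in RC and 0.642 ± 0.514 in RN (SD, n = 3 each). The other 5 of the 7 terminal genes were not tested, among them C9, the pore-forming component, with at most 1 count in a library. C6 had 0 to 7 counts and C7 1 to 5.

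Regulators of complement gave no common direction. Among 6 tested soluble regulators 4 were higher and 2 lower, and among 7 membrane regulators 3 were higher and 4 lower, 0 called by edgeR or DESeq2. Clu, clusterin, which blocks assembly of the attack complex and is abundant in astrocytes, had 1287, 1735 and 1278 CPM in RC, against 1029, 1215 and 1141 in RN, without overlap, with a log2 fold change of -0.35 ± 0.132 (adjusted p = 0.350, edgeR). Srpx2, a secreted protein that binds C1q, had 3.39 ± 0.560 CPM in RC and 5.62 ± 1.73 in RN, and its log2 fold change was 0.73 ± 0.286 (adjusted p = 0.367, edgeR) with overlapping groups. Cpn1, a carboxypeptidase subunit that inactivates C3a and C5a, was lower at a log2 fold change of -0.86 ± 0.490 (adjusted p = 0.575, edgeR), from 1.35 ± 0.231 CPM in RC and 0.737 ± 0.479 in RN (SD, n = 3 each). Cd55, decay-accelerating factor, which breaks up the enzyme that cuts C3, had 7.61 ± 2.08 CPM in RC and 5.20 ± 0.132 in RN without overlap, with a log2 fold change of -0.55 ± 0.225 (adjusted p = 0.394, edgeR). Csmd1 and Susd4, neuronal membrane inhibitors of complement, had log2 fold changes of 0.30 ± 0.137 and 0.17 ± 0.0776 (adjusted p = 0.456 and 0.458, edgeR), Susd4 without overlap. Cr1l, the rodent regulator Crry, lay at -0.12 and Cd59a, an inhibitor of pore formation, at -0.16, while Vtn, vitronectin, lay at 0.01.

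Complement receptors other than the anaphylatoxin receptors were led by the integrins that bind C3 fragments. Itgam and Itgb2, the chains of complement receptor 3 on microglia, had log2 fold changes of 0.35 ± 0.173 and 0.42 ± 0.193 (adjusted p = 0.496 and 0.457, edgeR), with RN replicate 1 within the RC range for each. Cd93, a C1q-receptor-like glycoprotein of endothelium, had 57.5, 58.4 and 57.9 CPM in RC, against 26.9, 45.0 and 56.9 in RN, all RN mice below all RC mice though RN replicate 3 only narrowly, with a log2 fold change of -0.43 ± 0.229 (adjusted p = 0.538, edgeR). It lay beside the endothelial markers, whose median was -0.44. Vsig4, a macrophage receptor for C3 fragments, had 0 to 2 counts in any library.

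Genes with a pattern like that of the members were sought among all tested genes outside the complement list, by Pearson's correlation of log2 CPM over the 6 mice, as a description. With the mean of the 3 C1q genes these were Tubb6, a tubulin, at 0.997, Mmp11, a matrix metalloproteinase, at 0.991 and Lpxn, leupaxin, at 0.990. With C3 they were Dao, D-amino acid oxidase, at 0.992, Ppp1r36, a phosphatase subunit, at 0.990 and Eef1akmt2, a methyltransferase, at 0.989. With Serping1 they were Tgm2, transglutaminase 2, at 0.991, Atp13a1, an ATPase, at 0.990 and AB124611 at 0.989. Each was picked as the highest among all these genes over only 6 points, which fall into 2 groups.

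The sign of the members was mostly the same under the alternative processing. Over 16 alternatives for each of 9 members, 140 of 144 values kept the direction and the outcome of the test, C1ra changed sign in 3 and C3 was called in 1. C1qa lay between 0.05 and 0.32, C1qb between 0.18 and 0.43, C1qc between 0.26 and 0.53, C3ar1 between 0.26 and 0.64 and C5ar1 between 0.15 and 0.55 on the log2 scale. C3 lay between -1.52 and -0.70, C4b between -0.70 and -0.02 and Serping1 between 0.66 and 1.73, and C1ra had the widest range, from -0.26 to 1.58.

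**Figure D5:**
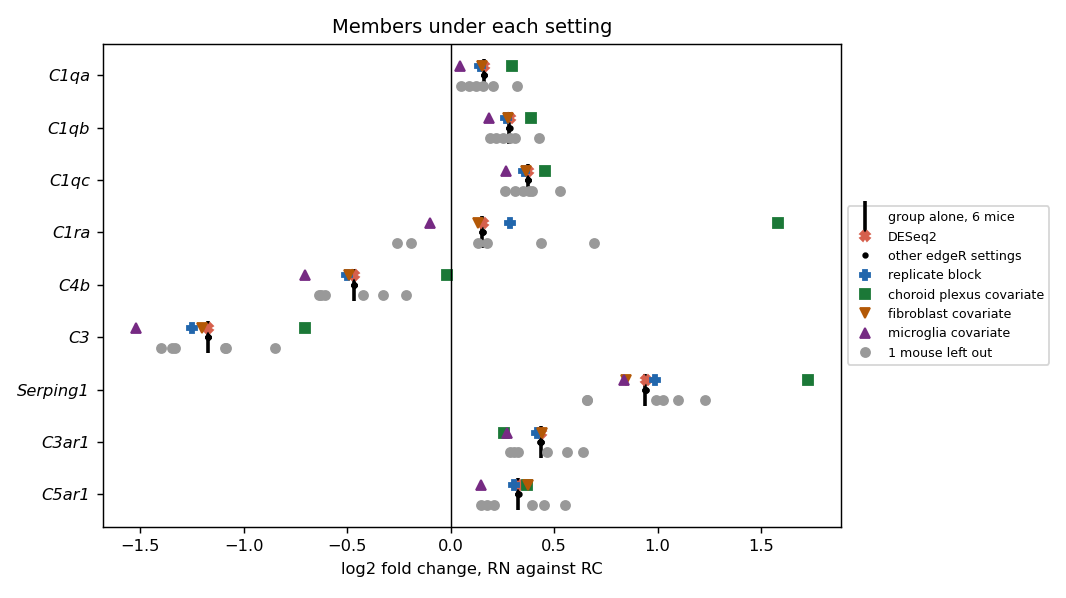
Log2 fold changes (RN against RC) of the 9 complement genes in edgeR's test on group alone and in 16 alternative settings, with one row per gene, a vertical line at 0 and marks for the kind of setting. C3 and C4b stay below 0 and the C1q genes, Serping1, C3ar1 and C5ar1 above 0 in every setting, while C1ra crosses 0.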

How the data were processed

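The deposited table holds whole-number read counts for every gene, not normalized by the authors, in one column for each of the 6 mice. Libraries were made with NEBNext Ultra RNA and sequenced on an Illumina NovaSeq, and the submitters' processing notes name fastp 0.18.0, FastQC, HISAT2 2.2.4, RSEM 1.2.19 and the build GRCm39. The annotation, the use of strand and the treatment of shared reads are not given in the sources used here. Rows without a gene name held 0.000342% of the counts. The labels number replicates 1 to 3 in each group, and p-values measure the spread between these samples.

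edgeR 4.0.16 in R 4.3.3 filtered genes with filterByExpr (minimum count 10), scaled by TMM and ran the quasi-likelihood test on group alone over 14956 genes with Benjamini-Hochberg adjustment. DESeq2 1.42.0 was an alternative. The biological coefficient of variation was 17.4%, and the chi-square per degree of freedom between pairs of libraries was 15.8 to 42.7, well over counting noise, so all were kept as replicates. Deviations from the group means of equally numbered mice correlated across genes at 0.173, 0.120 and 0.209 for numbers 1, 2 and 3. Among unequally numbered mice the largest value was 0.156, for RC replicate 1 with RN replicate 2. The labels do not say that equal numbers are pairs, and the replicate number was used as a block only in an alternative. The fits were tested on simulated data. The 9 members, the wider complement list, the marker lists and the rule for named genes were chosen with earlier results of these data known. The rule took all members, other complement genes by smallest p up to 3 a role, the first 2 genes of each marker list and the most alike genes. Mpo, Mmp8, S100a9, Ngp, Camp, Vcan and the other complement genes were added after their values were seen. Exon lengths came from GENCODE M21 and promoter sequences from RefSeq (GRCm38.p6). A gene of the wider complement list that was tested is not reported here by itself.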

Additional observations from a re-analysis of the deposited data

How the results depend on the processing

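No member was called in edgeR's test on group alone or in any alternative but one. The exception was the homeostatic microglia score as a covariate, which called 1 member, C3 at -1.52, and therefore 1 gene of the wider list. Over all 14956 genes that setting called 9 higher and 4 lower. DESeq2 called 2 genes of the wider list, against 1.15% of its genes. At an unadjusted p under 0.05 stood 3 members and 9 of 35 genes of the wider list, against 11.8% of all tested genes. DESeq2 placed 6 members there and 14 genes of the wider list, of which it covered 53, against 10.9% of its genes. Once choroid plexus scores entered the model, 1 member and 4 genes of the wider list remained, against 9.07% of the tested genes. With single mice left out the counts under this p ranged from 1 to 6 for members and from 6 to 12 for the wider list. There were 6 members without RN replicate 1, against 10% of tested genes, and 1 without RN replicate 2, against 10.5%. The called counts stayed at 0, and Neurod1 ranged from 3.52 to 3.95. Neurod1 lost its call with the choroid plexus score (log2 fold change 3.75, adjusted p = 0.0950, edgeR). C1ra reversed to -0.10 with the microglia score, -0.26 without RC replicate 3 and -0.19 without RN replicate 2, and with single mice left out ranged up to 0.69. The cause of these changes was not tested.

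With the replicate number as a block, 0 members and 0 genes of the wider list were called. An unadjusted p under 0.05 was reached by 3 and 9, against 13.6% of all tested genes in that setting. C3 lay at -1.25 (adjusted p = 0.192, edgeR) and Serping1 at 0.98 (adjusted p = 0.203, edgeR), and the block changed no call among the complement genes. Over all genes, edgeR called 9 higher and 2 lower on group alone, against 99 and 87 with DESeq2, 36 and 7 without the filter on low counts, 17 and 5 with the block, 0 and 1 with the choroid plexus score, 26 and 4 without RN replicate 1, 5 and 18 without RC replicate 3, and 3 and 0 without RN replicate 2. With 3 mice a group, the interval of C1ra, from -1.04 to 1.35, was the widest of the members. Reads shared by C4b with C4a, and by C1ra with C1rb, could not be separated.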

Other observations

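The remaining marker lists, of cells that may also make or bind complement proteins, had no gene called by edgeR. DESeq2 called 1 neutrophil and 4 hypothalamic markers and 0 of the others, against 1.15% of its genes. Border-associated macrophage markers had a median log2 fold change of -0.08, with 3 of 7 higher in RN, and their summed CPM lay between 95.6 and 102 in RC and 76.9 and 112 in RN. Monocyte markers had a median of -0.52 over 5 tested genes and neutrophil markers -0.19 over 5. Neuronal markers had a median of 0.11 over 10 genes, oligodendrocyte markers -0.16 over 8, thalamic neuron markers -0.54 over 8 and T and B cell markers -0.88 over 5. Hypothalamic markers were all higher, 9 of 9 tested, with a median of 1.71. The part of these cell types in the complement values was not tested.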
